A study of Mus musculus with 24 samples.

Results

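The Smad family and the Smurf ligases were followed as 10 genes, *Smad1*, *Smad2*, *Smad3*, *Smad4*, *Smad5*, *Smad6*, *Smad7*, *Smad9*, *Smurf1* and *Smurf2*. They were taken by symbol from bulk RNA-seq count tables with 48820 entries each, and all 10 passed the filter on low counts in every comparison. The 24 libraries fall into 8 groups of 3 mice on a C57BL/6 background. Macrophages and endothelial cells (ECs) were sorted at 8 to 10 weeks of age, and whole livers were taken at 12 weeks. HSC-KO mice carry floxed *Gdf2* and *Bmp10*, the genes of the ligands GDF2 (BMP9) and BMP10, and *Lrat*-Cre deletes both in hepatic stellate cells (HSCs). Their macrophages, ECs and livers were each compared with those of control mice. *Smad4* cKO mice carry floxed *Smad4* (labelled Smad4FF) and *Vav1*-Cre, which is active in blood cells, and their macrophages were compared with Smad4FF macrophages. The macrophages were gated as CD45+ CD64+ cells without Ly6C that carry the macrophage antigen encoded by *Adgre1*, the ECs as CD45- CD31+ cells, and by the library labels 3 mice gave both a macrophage and an EC library. The remaining alleles of the control mice are not stated in the labels.

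Smads carry the signal of the TGF-beta superfamily from the cell surface to the nucleus. SMAD1, SMAD5 and SMAD9 are the receptor-regulated Smads (R-Smads) of BMP receptors, including ALK1 (encoded by *Acvrl1*), which GDF2 and BMP10 bind on ECs and Kupffer cells. SMAD2 and SMAD3 are the R-Smads of TGF-beta and activin receptors, SMAD4 is the partner that both arms share, and SMAD6 and SMAD7 are inhibitory Smads (I-Smads) whose genes are themselves switched on by the pathway. SMURF1 and SMURF2 are E3 ubiquitin ligases that bind R-Smads and, brought by I-Smads, the receptors.

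The start sites of *Smad6*, *Smad9* and *Smad3* are shown because *Smad6* and *Smad9* were lower, and *Smad3* higher, in mutant cells. Each sequence runs from 250 bases before to 30 bases after the transcription start (RefSeq, GRCm38.p6), read along the gene's own strand. Capitals mark the letters searched in 300-base windows around the start, on both strands: GTCTAGAC, the palindrome first described as a Smad-binding element, GGCGCC, a GC-rich element bound by R-Smads, and the Smad box CAGAC. *Smad6* lies at chr9:64022030-64022309 on the minus strand, *Smad9* at chr3:54755332-54755611 on the plus strand and *Smad3* at chr9:63757965-63758244 on the minus strand.
Smad6: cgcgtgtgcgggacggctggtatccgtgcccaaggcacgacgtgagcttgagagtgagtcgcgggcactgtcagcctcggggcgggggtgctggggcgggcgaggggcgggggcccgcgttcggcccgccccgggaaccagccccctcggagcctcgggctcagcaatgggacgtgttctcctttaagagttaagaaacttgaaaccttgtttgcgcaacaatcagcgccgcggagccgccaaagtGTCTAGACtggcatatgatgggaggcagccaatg
Smad9: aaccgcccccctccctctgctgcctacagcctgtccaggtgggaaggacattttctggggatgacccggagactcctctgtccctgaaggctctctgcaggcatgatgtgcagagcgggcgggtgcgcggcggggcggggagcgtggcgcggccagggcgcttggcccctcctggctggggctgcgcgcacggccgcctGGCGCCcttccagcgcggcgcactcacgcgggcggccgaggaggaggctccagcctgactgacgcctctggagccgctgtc
Smad3: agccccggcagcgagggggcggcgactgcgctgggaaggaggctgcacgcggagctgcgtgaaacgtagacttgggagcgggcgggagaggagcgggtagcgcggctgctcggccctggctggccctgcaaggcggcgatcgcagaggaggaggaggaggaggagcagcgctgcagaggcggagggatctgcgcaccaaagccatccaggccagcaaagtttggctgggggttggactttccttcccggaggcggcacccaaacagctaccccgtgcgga

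The *Smad6* window held GTCTAGAC, beginning 4 bases before the start, a word found in 70 of 32851 windows (0.213%). The *Smad9* window held GGCGCC, beginning 51 bases before the start, which 11.9% of all windows hold. The windows of *Smad2*, *Smad4* and *Smad7* are not reported here. Of the other genes, *Smurf2* held 2 copies of GGCGCC and 2 of CAGAC, and *Smurf1* held 2 of CAGAC, a word in 49.6% of windows. *Smad5* has 3 annotated starts, of which windows 1 and 2 held GGCGCC and window 3 held CAGAC. None of these letters was in the *Smad1* or *Smad3* window, which says only that they are absent from those 300 bases. In GENCODE vM21 for GRCm38 the genes lie at chr8:79338395-79399518 (*Smad1*), chr13:56703010-56742377 (*Smad5*), chr3:54755582-54801257 (*Smad9*), chr9:63646767-63757994 (*Smad3*), chr9:63953076-64022059 (*Smad6*), chr5:144876495-144965847 (*Smurf1*) and chr11:106820066-106920715 (*Smurf2*). An exon overlap with another gene on the same strand was found for *Smad5* (100 bases shared with *Gm27301*) and for *Smurf2* (58 bases shared with *Gm27322*), and for no other member.

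The libraries held 60911527 to 110879155 counts. *Xist*, later used as a covariate, had 0, 0 and 1206 counts in control and 0, 7203 and 7959 in HSC-KO macrophages. In ECs it had 1765, 0 and 0 counts in controls and 2391, 0 and 3491 in HSC-KO mice. The deleted ligand genes were lower in HSC-KO livers (*Gdf2* by a log2 fold change of -2.55, adjusted p = 0.0135, and *Bmp10* by -4.07, adjusted p = 0.00657). In HSC-KO macrophages *Gdf2* did not pass (adjusted p = 0.161, where control libraries held 0, 195 and 66 counts), and in HSC-KO ECs it was lower (-6.39, adjusted p = 0.00752), while *Bmp10* did not pass the count filter in either. Each library had 387 to 713 genes at 4 counts, more than at 3 counts in all 24, and 18 to 46 genes per group stood at 0 in 1 library while the other 2 had over 50 counts. No member was among these genes, but a 0 is given here as listed. Macrophage markers summed to 9480 to 22219 CPM (counts scaled to the library total) in the macrophage libraries and EC markers to 10810 to 15530 CPM in the EC libraries. The Kupffer cell markers *Clec4f*, *Vsig4*, *Timd4* and *Cd5l* summed to 26630 to 28608 CPM in control macrophages and 39.4 to 210 CPM in HSC-KO macrophages. In the *Smad4* experiment they summed to 22795 to 28533 CPM in Smad4FF and 483 to 508 CPM in *Smad4* cKO macrophages. Any change of a member in macrophages therefore moved together with the Kupffer cell genes, and its part in the results was not tested.

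EC transcripts were present in the macrophage libraries of the *Smad4* experiment. Taking the median over 12 EC markers of the level relative to ECs (HSC-KO ECs for HSC-KO macrophages, control ECs for the other groups), the share was 4.26 to 12.4% in Smad4FF and 7.33 to 10.3% in *Smad4* cKO macrophages. It was 0.134 to 1.82% in control and 0.0791 to 0.408% in HSC-KO macrophages of the other experiment. Since *Smad6* and *Smad7* are far higher in ECs than in macrophages, the amounts that these shares would carry are given beside the results.

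CPM were computed with TMM scaling over the 24 libraries, and values are the mean ± SD of 3 libraries. Adjusted p values come from edgeR's quasi-likelihood test with Benjamini-Hochberg adjustment over all genes tested. A gene is said to have risen or fallen at an adjusted p below 0.05, and to be a differentially expressed gene (DEG) if its absolute log2 fold change was also above 1. Fold changes are mutant against control.

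In HSC-KO macrophages, 5 of the 10 members passed the test, against 19.2% of all 16337 genes tested (9.29% higher, 9.87% lower). *Smad3* rose, and *Smad1*, *Smad6*, *Smad7* and *Smad9* fell. DEGs were 4 members, against 11.7% of all genes. In *Smad4* cKO macrophages 4 members passed, against 7.74% of 17517 genes (3.71% higher, 4.03% lower), and all 4 were DEGs, against 5.43%. *Smad3* rose there, and *Smad4*, *Smad7* and *Smad9* fell. *Smad4* is the gene deleted in these mice, so its fall is part of the design. In HSC-KO ECs 5 members passed, against 20.1% of 16053 genes (10.3% higher, 9.77% lower), and 4 were DEGs, against 13.7%. *Smad3* and *Smad5* rose there, and *Smad6*, *Smad7* and *Smad9* fell. In HSC-KO livers 1 member, *Smad6*, passed and was a DEG, against 2.83% of 17118 genes passing (1.24% higher, 1.59% lower) and 2.48% DEGs. The groups did not overlap for 5, 4, 5 and 3 members in that order of comparisons, and for 40.3%, 29.4%, 40.4% and 19.7% of all genes tested. The median log2 fold change of the members was -0.13, -0.24, -0.00151 and 0.12, beside 0.04, 0.04, 0.00475 and -0.01 over all genes.

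**Figure D1:**
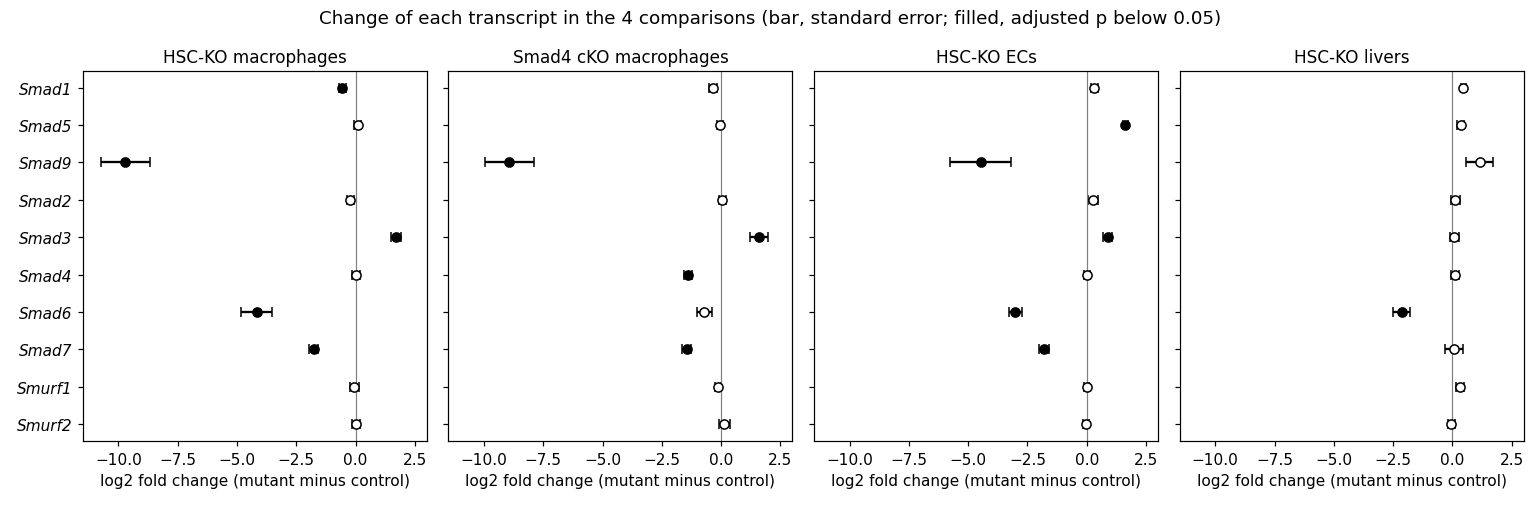
Log2 fold change (mutant minus control, x axis) of each of the 10 genes in the 4 comparisons, with its standard error. Filled points passed at an adjusted p below 0.05. The I-Smads *Smad6* and *Smad7* lie on the left and *Smad3* on the right in both HSC-KO cell types, and the points for *Smad9* in macrophages rest on mutant libraries at 0 counts.

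Of the BMP R-Smad genes, *Smad1* fell in HSC-KO macrophages, *Smad5* rose in HSC-KO ECs, and *Smad9* fell in the 3 comparisons of sorted cells. *Smad1* had 46.4, 41.2 and 35.3 CPM in control macrophages and 26.6, 31.5 and 25.5 CPM in HSC-KO macrophages. The groups did not overlap, and *Smad1* fell (log2 fold change -0.56, standard error 0.15, adjusted p = 0.0353). In ECs it had 46.8, 45.4 and 43.6 CPM in controls and 45.6, 64.8 and 59.3 CPM in HSC-KO mice, so that 1 mutant library lay within the control range. That difference of 0.32 (95% interval -0.04 to 0.69) did not pass (adjusted p = 0.204), and it passed in 1 of 12 alternatives, library size alone (0.61, adjusted p = 0.0402). Smad4FF macrophages had 32.9, 26.2 and 30.1 CPM and *Smad4* cKO macrophages 23.5, 18.9 and 26.3 CPM, a difference of -0.35 (interval -0.72 to 0.03) that did not pass. Livers had 16.5 ± 0.825 CPM in controls and 22.2 ± 1.67 CPM in HSC-KO mice, and although the groups did not overlap, the adjusted p was 0.107 (log2 fold change 0.46, standard error 0.12). The call in HSC-KO macrophages was lost in 7 of the 12 alternatives, among them without control replicate 1 (adjusted p = 0.093), control replicate 2 (0.099), HSC-KO replicate 1 (0.112) or HSC-KO replicate 3 (0.117).

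*Smad5*, the second BMP R-Smad gene, passed in HSC-KO ECs and in none of the other 3 comparisons. Control ECs had 54.4, 53.0 and 52.2 CPM and HSC-KO ECs 157, 166 and 172 CPM. This 3.10-fold rise (log2 fold change 1.63, standard error 0.11, adjusted p = 0.000135) held in all 12 alternatives. HSC-KO ECs were the highest of the 8 groups for *Smad5*, with no overlap with any other. In macrophages *Smad5* had 38.0 ± 5.20 CPM in controls and 40.4 ± 4.10 CPM in HSC-KO mice (log2 fold change 0.09, interval -0.24 to 0.42). In Smad4FF and *Smad4* cKO macrophages it had 43.9 ± 3.46 and 41.4 ± 5.04 CPM. Livers had 38.5 ± 6.44 and 47.9 ± 1.97 CPM, a log2 difference of 0.35 that did not pass (adjusted p = 0.331), although the groups did not overlap.

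*Smad9*, the least abundant member in sorted cells, was counted in every control macrophage library and in no mutant one. Control macrophages had 85, 161 and 49 counts and HSC-KO macrophages 0, 0 and 0. Smad4FF macrophages had 35, 81 and 64 counts and *Smad4* cKO macrophages 0, 0 and 0. Against a floor of 3 counts per library, *Smad9* was at least 36.6-fold lower in HSC-KO macrophages (adjusted p = 0.00269) and at least 17.8-fold lower in *Smad4* cKO macrophages (adjusted p = 0.00765). Against a floor of 10 counts, chosen after the low counts were seen, these bounds were 11-fold and 5.33-fold. Control ECs had 15, 43 and 18 counts and HSC-KO ECs 4, 0 and 0. That fall (log2 fold change -4.47, standard error 1.29, adjusted p = 0.0469) was lost in 8 of 12 alternatives, among them without any 1 of the control replicates or HSC-KO replicate 2 or 3 (adjusted p = 0.0828 to 0.169). The size of the fall rests on HSC-KO replicate 1, the library with 4 counts, since without it the mutant libraries are at 0 and the fitted value moves to -7.80, which is no bound.

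In livers *Smad9* was far more abundant and did not fall. Control livers had 9.86, 6.12 and 12.9 CPM and HSC-KO livers 16.7, 6.72 and 38.7 CPM. The mutant libraries spanned a wide range, and the difference did not pass (log2 fold change 1.15, standard error 0.58, adjusted p = 0.489). The highest library, HSC-KO replicate 3, was the liver library with 12 counts of *Xist*, where the other 5 had 31392 to 54369. Without it the log2 fold change was 0.31. Hepatocyte markers in the macrophage libraries, at 0.201 to 1.11% of their liver level, would carry 0.0295 to 0.107 CPM of *Smad9* in the control macrophages of both experiments, below the 0.357 to 1.88 CPM measured. In the 6 mutant macrophage libraries they would carry 0.0194 to 0.0619 CPM, where 0 was measured.

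*Smad4*, the shared partner and the gene targeted in the second experiment, had 39.7, 34.6 and 42.3 CPM in Smad4FF macrophages and 16.7, 12 and 14.9 CPM in *Smad4* cKO macrophages. It fell 2.62-fold (log2 fold change -1.39, standard error 0.16, adjusted p = 0.00234), without overlap and in all 11 alternatives. Counts are per gene, so reads from exons outside the floxed part are included. The EC share of the *Smad4* cKO libraries would carry 5.79 to 8.17 CPM of *Smad4*, or 38.8 to 63.7% of what they held. That share would also carry 4.31 to 6.07 CPM of *Smad6*, more than the 1.66 to 2.51 CPM measured in those libraries. The share as estimated may therefore be too large for *Smad4* too. *Smad4* did not pass in the HSC-KO comparisons. The log2 fold change was 0.01 (interval -0.37 to 0.39) in HSC-KO macrophages, 0.01 (-0.31 to 0.32) in ECs and 0.10 (-0.30 to 0.51) in livers.

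Of the R-Smads of the TGF-beta arm, *Smad3* rose in all 3 comparisons of sorted cells. In macrophages it had 13.8, 9.71 and 10.4 CPM in controls and 43.6, 31.7 and 35.5 CPM in HSC-KO mice, a 3.26-fold rise without overlap (log2 fold change 1.70, standard error 0.19, adjusted p = 0.00106). In ECs it had 24.6, 31.5 and 25.3 CPM in controls and 49.2, 58.0 and 42.4 CPM in HSC-KO mice, a 1.84-fold rise (log2 fold change 0.88, standard error 0.17, adjusted p = 0.0106) that was below the DEG threshold. Both of these calls held in all 12 alternatives. Smad4FF macrophages had 12.8, 7.64 and 7.92 CPM and *Smad4* cKO macrophages 23.1, 16.9 and 44.2 CPM.

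The *Smad4* cKO libraries were all above the Smad4FF libraries, but replicate 3 stood well above the other 2. This 3.03-fold rise (log2 fold change 1.60, standard error 0.38) had an adjusted p of 0.045 and was lost in 7 of 11 alternatives. Those include leaving out Smad4FF replicate 1 (adjusted p = 0.0633), 2 (0.148) or 3 (0.173) or *Smad4* cKO replicate 1 (0.0931) or 3 (0.0745), where the log2 fold change was 1.11 to 1.86. Blocking on the replicate number gave 0.0831. In livers *Smad3* had 20.9 ± 5.31 and 21.7 ± 3.26 CPM (log2 fold change 0.09, adjusted p = 0.923).

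*Smad2* passed in none of the 4 comparisons, nor with DESeq2, and its lowest unadjusted p was 0.224. It ranged from 11.6 ± 1.58 CPM in control ECs to 19.2 ± 2.97 CPM in control macrophages. Its log2 fold changes were -0.21 (interval -0.59 to 0.16) in HSC-KO macrophages, 0.05 (-0.27 to 0.37) in *Smad4* cKO macrophages, 0.26 (-0.23 to 0.76) in HSC-KO ECs and 0.13 (-0.28 to 0.54) in HSC-KO livers. Per kilobase (kb) of exon, the ratio of *Smad3* to *Smad2* was 0.990, 0.948 and 0.854 in control macrophages and 3.94, 2.95 and 3.68 in HSC-KO macrophages. In ECs it was 3.17, 3.95 and 4.11 in controls and 7.36, 5.40 and 4.79 in HSC-KO mice.

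**Figure D2:**
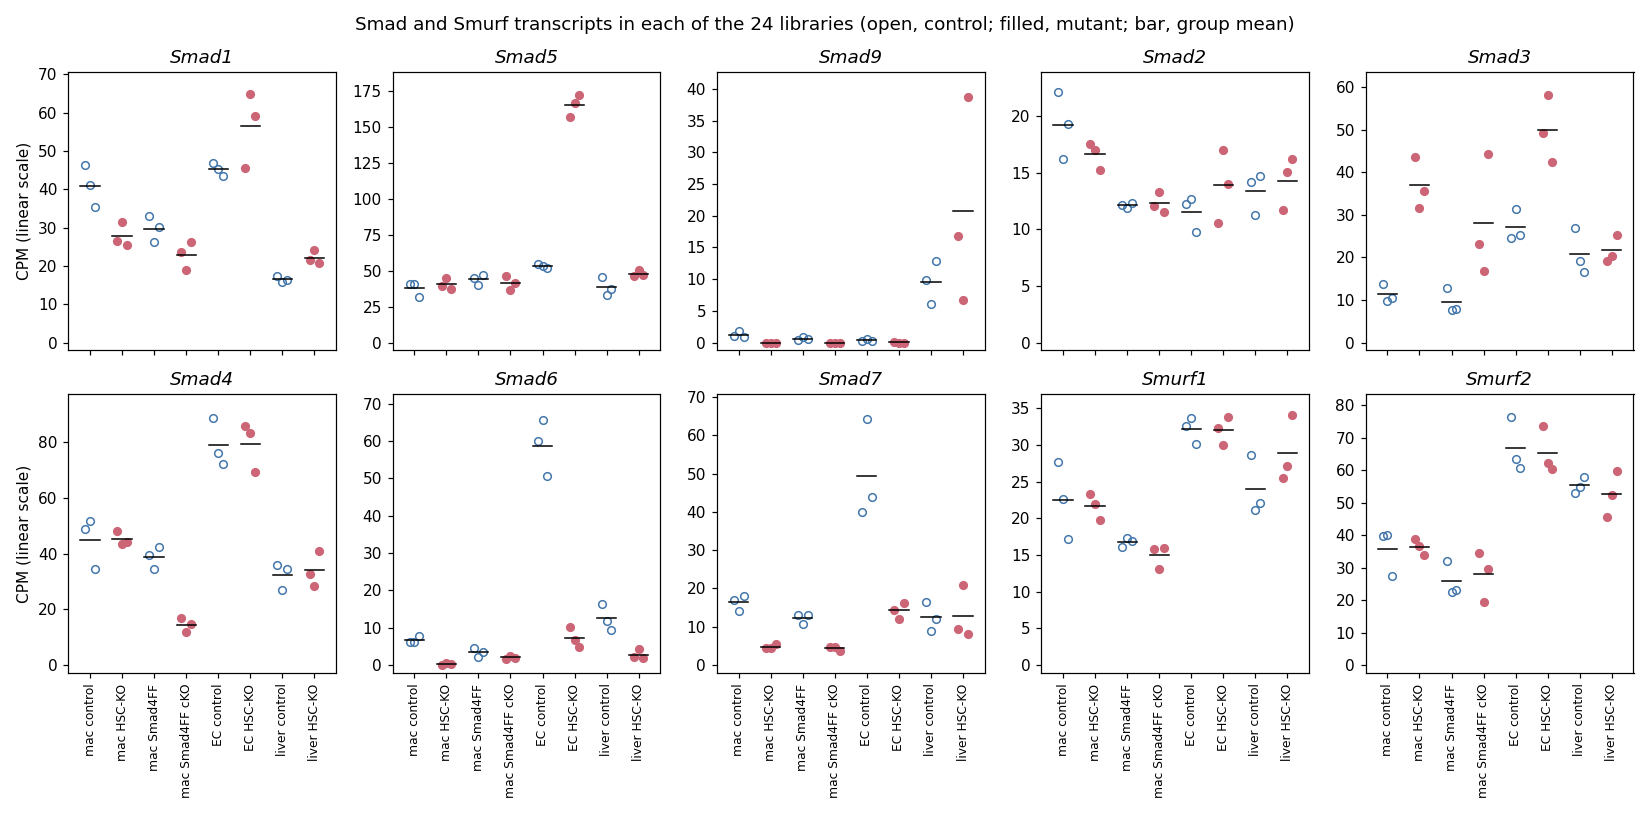
CPM on a linear scale (y axis) of the 10 genes in each of the 24 libraries, by group. Open points are control and filled points mutant libraries, and the bar is the mean of 3. *Smad6* and *Smad7* are highest in control ECs, *Smad5* stands apart in HSC-KO ECs, *Smad9* is highest in livers, and *Smad4* is low in *Smad4* cKO macrophages.

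The I-Smad genes carried the largest falls among the members with counts in every mutant library. *Smad6*, whose product is best known as an inhibitor of the BMP arm, had 59.9, 65.7 and 50.5 CPM in control ECs and 10.1, 6.80 and 4.96 CPM in HSC-KO ECs. The 8.08-fold fall (log2 fold change -3.01, standard error 0.27, adjusted p = 0.000361) held in all 12 alternatives. In macrophages it had 6.12, 6.11 and 7.79 CPM in controls and 0.0791, 0.625 and 0.401 CPM in HSC-KO mice, the last from 7, 60 and 37 counts. This was an 18.1-fold fall (log2 fold change -4.17, standard error 0.65, adjusted p = 0.00408), and the call held in all 12. Its size moved to a log2 fold change of -4.79 without HSC-KO replicate 2, to -3.70 without HSC-KO replicate 1, the library with 7 counts, and to -5.12 with *Xist* as a covariate. The EC share of these libraries would carry 0.0789 to 1.07 CPM of *Smad6* in controls and 0.00577 to 0.0297 CPM in HSC-KO macrophages, below what was measured in each library.

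In livers *Smad6* was the only member that passed. Control livers had 16.5, 11.8 and 9.28 CPM and HSC-KO livers 2.28, 4.24 and 1.78 CPM, with no overlap. The 4.41-fold fall (log2 fold change -2.14, standard error 0.37, adjusted p = 0.0264) was lost without control replicate 1 (adjusted p = 0.0869), 2 (0.0933) or 3 (0.0613) or HSC-KO replicate 1 (0.125), with log2 fold changes from -2.59 to -1.89 over all left-out libraries. In bulk livers, fewer cells of a type and less RNA per cell cannot be told apart. The 12 EC markers summed to 544 to 672 CPM in control and 465 to 552 CPM in HSC-KO livers, while *Stab2* among them went from a mean of 126 to 12.5 CPM. The 4 Kupffer cell markers went from 264 to 459 CPM down to 0.708 to 2.14 CPM and the 8 macrophage markers from 245 to 388 CPM down to 92.4 to 141 CPM. The 8 stellate cell markers went from 321 to 449 CPM up to 607 to 651 CPM. The part of these cell types in the *Smad6* result was not tested.

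*Smad6* did not pass in the *Smad4* experiment. Smad4FF macrophages had 4.62, 2.29 and 3.46 CPM and *Smad4* cKO macrophages 1.66, 2.51 and 2.00 CPM, which overlap (log2 fold change -0.72, interval -1.45 to 0.02, adjusted p = 0.247). The EC share would carry 2.50 to 7.26 CPM in Smad4FF and 4.31 to 6.07 CPM in *Smad4* cKO macrophages, more than was measured in each of the 6 libraries, so the share as estimated is too large for *Smad6*. The *Smad6* level of macrophages themselves could therefore not be read from this experiment.

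*Smad7*, which acts on both arms and recruits Smurf ligases to the receptors, had 39.9, 64.2 and 44.0 CPM in control ECs and 14.4, 12.1 and 16.2 CPM in HSC-KO ECs. It fell 3.47-fold (log2 fold change -1.80, standard error 0.22, adjusted p = 0.00147). In macrophages it had 17.1, 14 and 18 CPM in controls and 4.39, 4.58 and 5.44 CPM in HSC-KO mice, a 3.41-fold fall (log2 fold change -1.77, standard error 0.18, adjusted p = 0.000691). Both falls were without overlap and held in all 12 alternatives. Smad4FF macrophages had 13, 10.8 and 13.2 CPM and *Smad4* cKO macrophages 4.81, 4.77 and 3.57 CPM. This 2.75-fold fall (log2 fold change -1.46, standard error 0.19, adjusted p = 0.00412) held in all 11. The EC share would carry 2.10 to 6.10 CPM of *Smad7* in Smad4FF macrophages, 19.5 to 47.1% of the measured level, and 3.62 to 5.10 CPM in *Smad4* cKO macrophages, 100.3 to 105.9% of it. Since the share as estimated exceeds the measured *Smad6* in the same libraries, these amounts of *Smad7* may be too large as well.

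In livers *Smad7* did not pass. Control livers had 16.3, 8.97 and 12 CPM and HSC-KO livers 9.40, 20.8 and 8.12 CPM. HSC-KO replicate 2 was above every control and the other 2 were within or below the control range, and the log2 fold change was 0.07 (interval -0.81 to 0.96). Without that replicate it was -0.47 (adjusted p = 0.628).

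**Figure D3:**
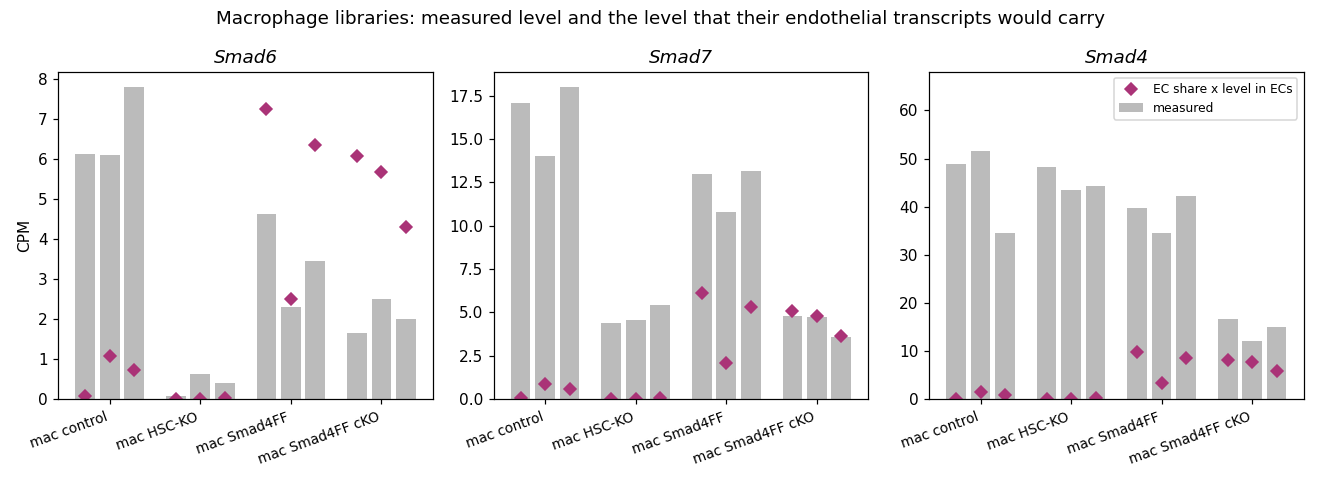
CPM (y axis) of *Smad6*, *Smad7* and *Smad4* in the 12 macrophage libraries. Grey bars are the measured levels and diamonds the level that the EC share of each library would carry, which is that share times the mean level in HSC-KO ECs for HSC-KO macrophages and in control ECs for the other groups. The diamonds exceed the bars for *Smad6* in the 6 libraries of the *Smad4* experiment and, slightly, for *Smad7* in the 3 *Smad4* cKO libraries, and stay below them in the HSC-KO experiment.

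The Smurf ligase genes passed in none of the 4 comparisons, nor with DESeq2, and their lowest unadjusted p was 0.113. *Smurf1* had 22.5 ± 5.31 and 21.7 ± 1.80 CPM in control and HSC-KO macrophages (log2 fold change -0.05, interval -0.49 to 0.39). It had 16.8 ± 0.601 and 15 ± 1.68 CPM in Smad4FF and *Smad4* cKO macrophages (-0.13, -0.46 to 0.19). ECs had 32.1 ± 1.84 and 32.0 ± 1.94 CPM (-0.01, -0.30 to 0.28) and livers 24 ± 4.12 and 28.9 ± 4.58 CPM (0.30, -0.09 to 0.70). *Smurf2* was at 35.8 ± 7.28 and 36.5 ± 2.49 CPM in control and HSC-KO macrophages (0.02, -0.36 to 0.41). It was at 25.9 ± 5.25 and 27.9 ± 7.74 CPM in Smad4FF and *Smad4* cKO macrophages (0.14, -0.41 to 0.68). ECs had 67.0 ± 8.38 and 65.4 ± 7.19 CPM (-0.04, -0.35 to 0.28) and livers 55.4 ± 2.50 and 52.6 ± 7.10 CPM (-0.04, -0.35 to 0.27). These intervals leave room for changes of up to 0.70 on the log2 scale in either ligase. The small differences changed sign under library size alone for *Smurf1* in both macrophage comparisons and for both ligases in ECs.

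At baseline, control ECs differed from control macrophages in 9 of the 10 members, against 47.9% of 18949 genes tested (23.3% higher and 24.7% lower in ECs) in a fit over the 12 control libraries. *Smad6* was higher in ECs by 3.12 on the log2 scale (standard error 0.28, adjusted p = 3.8e-06), *Smad7* by 1.58 (0.24, adjusted p = 0.000203), *Smad3* by 1.25 (0.25, adjusted p = 0.00146), *Smurf2* by 0.89, *Smad4* by 0.80, *Smurf1* by 0.50 and *Smad5* by 0.47. *Smad2* (-0.75, adjusted p = 0.0030) and *Smad9* (-1.95, adjusted p = 0.0142) were lower in ECs, and *Smad1* did not differ beyond its error (0.13, interval -0.15 to 0.41). The calls for *Smad5*, *Smad9* and *Smurf1* were lost under 3, 3 and 6 of the 16 alternatives, and without control EC replicate 2 the *Smad9* difference was -2.74. The Smad4FF macrophages did not equal the other control macrophages. They were lower in *Smad1* (-0.48, adjusted p = 0.0171), *Smad2* (-0.68, adjusted p = 0.0117) and *Smad6* (-0.97, adjusted p = 0.0206), which is 3 of 10 members against 27.5% of all genes. The calls for *Smad1* and *Smad6* were lost in 5 and 3 of the 16 alternatives. These sets of macrophages also come from different experiments. *Xist* had 0, 0 and 1206 counts in the control and 0, 3 and 0 in the Smad4FF macrophages. The part of these, and of the larger EC share, in the differences was not tested.

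*Smad6* went from 58.7 ± 7.68 CPM in control ECs through 12.5 ± 3.66 in control livers, 7.30 ± 2.62 in HSC-KO ECs and 6.67 ± 0.967 in control macrophages to 0.368 ± 0.274 in HSC-KO macrophages. The step from control ECs to the next group had no overlap, whereas control livers and HSC-KO ECs, and HSC-KO ECs and control macrophages, overlapped. *Smad7* followed control ECs (49.4 ± 13 CPM) with control macrophages (16.4 ± 2.07) and HSC-KO ECs (14.3 ± 2.05), which overlapped. *Smad9* was highest in HSC-KO (20.7 ± 16.4) and control livers (9.62 ± 3.39), which overlapped each other and no other group.

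Levels of different genes were compared per kb of the exon union, and the order of some genes depends on the length used. In control macrophages *Smad4* led with 12.1 CPM per kb, before *Smad1* (6.54), *Smurf2* (5.81) and *Smad5* (5.12), and *Smad9* was last (0.231). In control ECs *Smad4* (21.3) and *Smad6* (18.3) led, followed by *Smad7* (10.9) and *Smurf2* (10.9). In control livers *Smurf2* (8.99) and *Smad4* (8.74) were followed by *Smad5* (5.19), *Smad6* (3.90), and *Smad9* stood at 1.79. The I-Smads made up 38.2 to 45.2% of the summed CPM per kb of the 8 Smad genes in control ECs and 6.63 to 9.34% in HSC-KO ECs. In macrophages their share was 14.3 to 21.4% in controls and 2.98 to 4.36% in HSC-KO mice, and 12.5 to 14.3% in Smad4FF and 5.78 to 10.5% in *Smad4* cKO mice. In livers it was 18.8 to 24.6% in controls and 6.41 to 19.2% in HSC-KO mice, where the highest value, of replicate 2, lay within the control range.

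The share of the BMP R-Smads in ECs went from 18.9 to 21.7% in controls to 41.8 to 49.7% in HSC-KO mice, and in livers from 30.2 to 34.0% to 38.4 to 46.0%. None of these R-Smad genes passed in livers, and the total there includes *Smad6*, which fell. In HSC-KO macrophages the BMP R-Smad share was 28.5 to 35%, against 33.8 to 35.6% in controls, and in *Smad4* cKO macrophages 39.9 to 46.3%, against 37.8 to 39.1% in Smad4FF. The summed level of the class was not higher there (9.25 ± 1.14 against 10.8 ± 0.901 CPM per kb), and the total includes the deleted *Smad4*, whose mean share was 18.5% against 37.2%. The TGF-beta R-Smads went from 10.3 to 13.6% to 24.2 to 29.5% in HSC-KO macrophages and from 9.62 to 12.3% to 25.6 to 37.9% in *Smad4* cKO macrophages. Per kb, I-Smad transcripts were 1.86, 2.39 and 1.82 times those of the BMP R-Smads in control ECs and 0.223, 0.147 and 0.157 times in HSC-KO ECs. In macrophages this ratio was 0.433, 0.402 and 0.635 in controls and 0.104, 0.109 and 0.147 in HSC-KO mice. These shares and ratios are sums of the values above, given as a description, and were not tested.

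**Figure D4:**
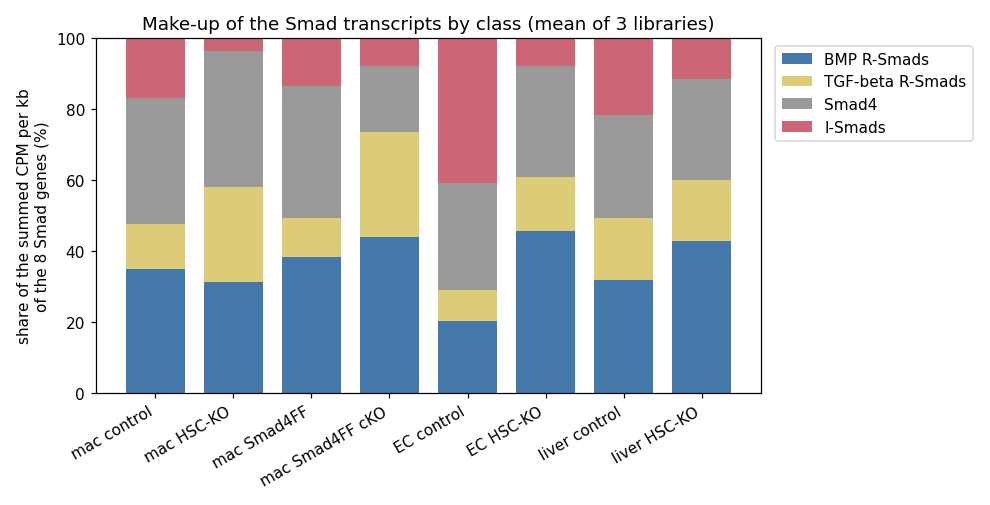
Share (y axis, %) of the 4 Smad classes in the summed CPM per kb of the 8 Smad genes, as the mean of 3 libraries in each of the 8 groups. The I-Smad share (top) is 40.9% in control ECs and 7.93% in HSC-KO ECs, and the TGF-beta R-Smad share is larger in both mutant macrophage groups than in their controls.

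Whether a member responded differently in different settings was tested as an interaction. Between macrophages and ECs of HSC-KO mice, *Smad5* differed (log2 difference of macrophages minus ECs -1.53, standard error 0.17, adjusted p = 0.000213) and so did *Smad1* (-0.87, standard error 0.22, adjusted p = 0.0198), against 15.4% of 18213 genes. The *Smad5* difference held in all 17 alternatives, including a limma fit with the mouse as a block. The *Smad1* difference was lost without HSC-KO macrophage replicate 1 or 3 or HSC-KO EC replicate 2 (adjusted p = 0.0504 to 0.0514). *Smad3* had a difference of 0.84 (interval 0.25 to 1.42, adjusted p = 0.0561) that passed with DESeq2 (0.81, adjusted p = 0.0339) and without control macrophage replicate 1 (adjusted p = 0.0273). *Smad7* gave 0.03 (interval -0.59 to 0.66) and *Smad6* -1.15 (-2.57 to 0.27), neither of which passed.

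Between HSC-KO and *Smad4* cKO macrophages, *Smad4* differed by 1.44 (standard error 0.23, adjusted p = 0.00798), being the targeted gene, and *Smad6* by -3.41 (standard error 0.73, adjusted p = 0.0303), against 2.94% of 18149 genes. The *Smad6* difference was lost without control replicate 2 or 3, Smad4FF replicate 2 or 3, or any 1 of the *Smad4* cKO replicates (adjusted p = 0.0515 to 0.0799), and its size moved to -4.02 without HSC-KO replicate 2. The EC share, which as estimated exceeds the *Smad6* counted in the *Smad4* experiment, moves with this result, and its part was not tested. For *Smad7*, where the EC share as estimated would carry all that the *Smad4* cKO libraries held, the difference was -0.27 (interval -0.81 to 0.28), and for *Smad3* 0.15 (-0.84 to 1.14). For *Smad9*, at 0 in both mutants, no difference can be estimated.

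**Figure D5:**
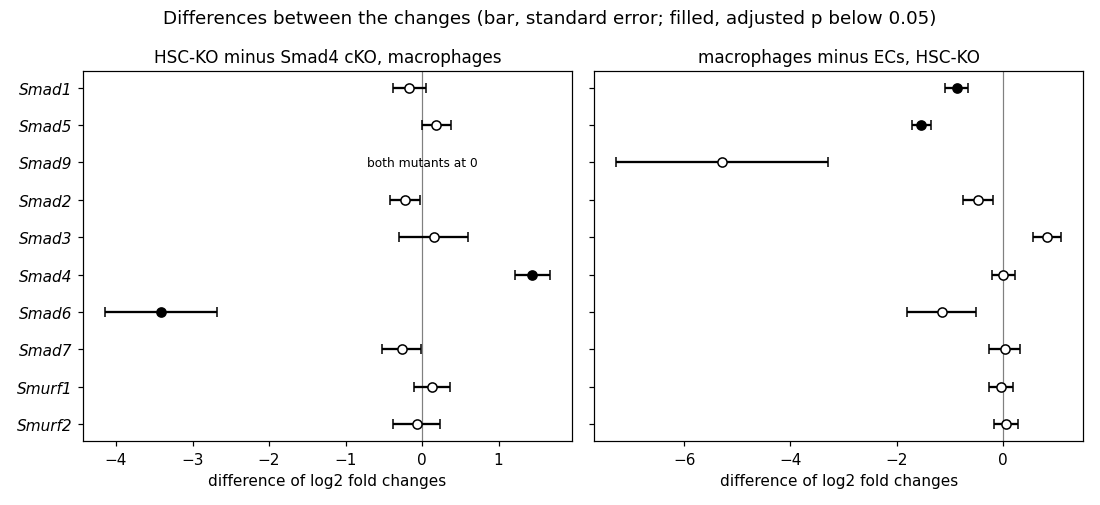
Differences of log2 fold changes (x axis, with standard error) between HSC-KO and *Smad4* cKO macrophages (left) and between macrophages and ECs of HSC-KO mice (right). Filled points passed at an adjusted p below 0.05. These are *Smad4* and *Smad6* on the left and *Smad1* and *Smad5* on the right.

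Other genes of the pathway were counted from lists by function, to be read against the shares of all genes that were higher and lower in the same comparison (9.29 and 9.87% in HSC-KO macrophages, 3.71 and 4.03% in *Smad4* cKO macrophages, 10.3 and 9.77% in HSC-KO ECs, 1.24 and 1.59% in HSC-KO livers). Of the BMP target genes, 4 of 9 tested fell in HSC-KO macrophages, 4 of 10 in *Smad4* cKO macrophages, 2 of 11 in HSC-KO ECs and 1 of 12 in HSC-KO livers, and 2 rose in ECs. *Id3*, an inhibitor of basic helix-loop-helix factors, went from 1024 to 3.41 CPM in HSC-KO macrophages (log2 fold change -8.23, adjusted p = 0.000183) and from 2003 to 361 CPM in *Smad4* cKO macrophages (-2.44, adjusted p = 0.000102). *Id1* of the same family went from 14.8 to 0.0778 CPM (-7.56, adjusted p = 0.00075) and from 13.9 to 1.77 CPM (-2.93, adjusted p = 0.000787). Control ECs held 24.4 CPM of *Id1* and 1183 CPM of *Id3*. What the EC share would carry of these genes in the *Smad4* experiment was not computed. In ECs *Id2* fell (-2.28, adjusted p = 0.00501), *Id4* fell (-1.34, adjusted p = 0.0111) and *Msx1* rose (2.95, adjusted p = 0.00173), whereas *Id3* (-0.87, adjusted p = 0.175) and *Id1* (0.17, adjusted p = 0.73) did not pass. The list's median was -2.60, -0.99, 0.08 and 0.10 in the 4 comparisons, beside medians over all genes of -0.01 to 0.04.

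Of the TGF-beta target genes, 5 of 11 rose and 1 fell in HSC-KO macrophages, 4 of 13 rose in *Smad4* cKO macrophages, 5 of 12 in HSC-KO ECs and 2 of 13 in HSC-KO livers. *Pmepa1*, whose product binds and restrains R-Smads, rose in HSC-KO macrophages, *Smad4* cKO macrophages and HSC-KO ECs, by 5.98, 4.68 and 2.21 on the log2 scale (adjusted p = 0.000134, 6.43e-05 and 0.00721). *Tgfbi*, which encodes a secreted matrix protein, rose in HSC-KO livers (1.66, adjusted p = 0.00137). The medians of the list were 0.74, 0.08, 0.50 and 0.63.

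Among Smad partners and corepressors, 4 of 16 rose and 1 fell in HSC-KO macrophages, 4 of 17 rose in *Smad4* cKO macrophages, 3 of 14 rose and 1 fell in HSC-KO ECs, and 0 of 17 passed in livers by edgeR (4 at an unadjusted p under 0.05, and 1 by DESeq2). The Runt factors, which bind R-Smads at target genes, rose in HSC-KO macrophages, with *Runx3* going from 3.74 to 254 CPM (log2 fold change 6.07, adjusted p = 0.000142), *Runx2* from 0.327 to 6.31 CPM (4.29, adjusted p = 0.00323) and *Runx1* from 16.5 to 56.6 CPM (1.78, adjusted p = 0.000911). The 8 lymphocyte and neutrophil markers summed to 9.09 to 18.2 CPM in control and 35.7 to 112 CPM in HSC-KO macrophages, with the lymphocyte gene *Nkg7* at a mean of 5.38 and 52.8 CPM and *Cd3g* at 1.52 and 13.8 CPM. *Runx3* is also a gene of T and NK cells, and the part of these cells in its rise was not tested. The corepressor *Ski* also rose there (1.20, adjusted p = 0.00175). In ECs *Zfp423*, a BMP Smad cofactor, went from 0.987 to 16.3 CPM (4.05, adjusted p = 8.76e-05) and the corepressor *Zeb2* from 58.8 to 10.3 CPM (-2.51, adjusted p = 0.00642).

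Among receptors, 3 of 11 rose and 1 fell in HSC-KO macrophages, 1 of 11 rose and 1 fell in *Smad4* cKO macrophages, 3 of 12 rose and 3 fell in HSC-KO ECs, and 1 of 13 rose and 1 fell in livers. *Tgfbr1*, the type I TGF-beta receptor that phosphorylates SMAD2 and SMAD3, rose in both macrophage comparisons (2.76, adjusted p = 0.000378, and 1.72, adjusted p = 0.00107), and the BMP receptor *Bmpr1a* fell in both (-2.02, adjusted p = 0.00842, and -1.20, adjusted p = 0.0314). *Acvrl1*, which encodes ALK1, rose in ECs (1.73, adjusted p = 0.000539), where the coreceptor *Eng* fell (-1.31, adjusted p = 0.00531). Of the other ubiquitin ligases and deubiquitinases that act on Smads, 2 of 14 were higher in HSC-KO macrophages, against 9.29% of all genes, 1 of 14 in *Smad4* cKO macrophages, against 3.71%, and 0 of 14 in ECs and in livers by edgeR (0 at an unadjusted p under 0.05, and 0 by DESeq2, in each). The ligase *Wwp1* rose in HSC-KO macrophages (1.32, adjusted p = 0.00574). Of the Smad anchors, export factors and phosphatases, 2, 1 and 2 of 15 rose in the sorted cells, 0 of 15 passed in livers by edgeR (1 at an unadjusted p under 0.05, and 0 by DESeq2), and 1 fell in ECs, the phosphatase gene *Ctdspl* (-1.87, adjusted p = 0.000837).

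The genes whose pattern over the 24 libraries was most like that of an I-Smad were sought among 8223 genes (8222 for *Smad7*) whose mean log2 CPM was 3 or more. For *Smad6* they were *Creb3l2* (Pearson r = 0.892), *Rras2* (0.858) and *Smad7* (0.852), and for *Smad7* they were *Creb3l2* (0.888), *Rras2* (0.879) and *St3gal4* (0.865). *Creb3l2*, like the I-Smads, was highest in control ECs, at 138 ± 0.970 CPM, with 72.0 ± 5.04 CPM in HSC-KO ECs. For *Smad9* they were *C1rb* (0.952), *Arhgap21* (0.923) and *C1ra* (0.921), where *C1ra* and *C1rb* encode complement proteases made by hepatocytes. These values describe libraries that share tissue, group and, in part, mice. Within the 12 control libraries *Smad6* and *Smad7* had an r of 0.858 and within the 12 mutant libraries of 0.685.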

How the data were processed

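RNA of sorted macrophages, sorted ECs and livers of 3 mice per group was sequenced. The authors aligned the reads with HISAT2 to mm10 (GRCm38), obtained gene counts with featureCounts, and the deposited values are whole-number counts for 24 libraries in 4 tables, without normalization. Versions, annotation release and strand setting are not given in the sources used here. For library preparation the labels name another kit than the paper does. Each library was mapped to its group by its labels. Tables were joined on the 48337 symbols found once in every table.

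In R 4.3.3, edgeR 4.0.16 was used for the low-count filter (filterByExpr with a count of 10 and a total of 15 as minimum), for TMM factors and for testing with edgeR's quasi-likelihood test on the 6 libraries of a comparison, or on 12 libraries for interactions and controls. The standard error is the log2 fold change divided by the root of F. limma 3.58.1 and DESeq2 1.42.0 served as alternatives, and Python 3.11.15 with matplotlib 3.10.9 for figures. A gene at 3 counts or fewer in every library of a group was given as a bound against 3 counts, a bound that covers counting error alone. The fits were tested on simulated counts. Exon lengths came from GENCODE vM21 and promoters from RefSeq.

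The members, the pathway lists and the tests were chosen with earlier results of these data known. The 10 members are named in every comparison. Of each list, up to 4 DEGs per comparison could be named, those with the largest change among genes whose mean log2 CPM was 1 or more. One result that this rule would name is not reported here. Genes most like a member were the 3 with the highest Pearson r. Alternatives were DESeq2, other scaling, no filter, left-out libraries, a replicate block, *Xist* as a covariate, and a mouse block. The test glmTreat, with 1 as its log2 threshold, was used for the DEG counts alone. It is not among the alternatives counted for a member. The authors name DESeq2 for their own DEGs, and the files used here hold counts alone.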

Additional observations from a re-analysis of the deposited data

Results flagged for a closer look

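The responses of 4 member genes differed between cell types or mutants by an interaction term in edgeR's quasi-likelihood test. These were 2 of 10 members between macrophages and ECs, where 15.4% of all genes differed, and 2 of 10 between HSC-KO and *Smad4* cKO macrophages, where 2.94% did. The last 2 are *Smad4*, which was itself deleted, and *Smad6*, limited as given below, so this count is no measure of the members' responses. *Smad5* responded differently in macrophages and ECs of HSC-KO mice, with a difference of log2 fold changes of -1.53 (standard error 0.17, adjusted p = 0.000213), since it rose in all 3 HSC-KO ECs above all control ECs and overlapped between the macrophage groups. *Smad1* differed in the same contrast by -0.87 (standard error 0.22, adjusted p = 0.0198), being lower in HSC-KO macrophages and not past the threshold in ECs. *Smad4* differed between HSC-KO and *Smad4* cKO macrophages by 1.44 (standard error 0.23, adjusted p = 0.00798), in the mice in which it was targeted. *Smad6* differed in that contrast by -3.41 (standard error 0.73, adjusted p = 0.0303). This call was lost in 7 of 16 alternatives (adjusted p of up to 0.0799). The EC share as estimated would carry more *Smad6* than was measured in each of the 6 libraries of the *Smad4* experiment, and its part in this difference was not tested.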

How the results depend on the processing

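Over the 4 comparisons and 4 differences, 992 of 1120 member values kept their direction and their side of the threshold, 56 lost and 7 gained a call, and 65 changed sign, none of which was a call. The DEG counts of 1904, 951, 2198 and 425 (HSC-KO macrophages, *Smad4* cKO macrophages, HSC-KO ECs and HSC-KO livers) became 906, 315, 1096 and 142 with glmTreat, whose null hypothesis is stricter by construction. In livers DESeq2 gave 794 DEGs and 2 passing members, *Smad6* and *Smad1*, and the cause was not tested. With 1 library left out, *Smad4* cKO macrophages had 566 to 909 DEGs, the lowest without Smad4FF replicate 3. Livers had 188 to 451 DEGs, the lowest without control replicate 2, and 0 to 1 passing members. Left-out libraries gave 1 to 2 members that differed between HSC-KO and *Smad4* cKO macrophages, 1 to 3 between macrophages and ECs, and 1 to 4 between the control macrophages, where 1 remained without Smad4FF replicate 2 or 3. Library size alone moved the median log2 fold change of all genes to 0.13, 0.19, 0.30 and -0.12, and the share of DEGs that were higher from 50.9 to 62.4% in *Smad4* cKO macrophages and from 56.1 to 72.5% in ECs.

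Signs changed for values whose reported size was at most 0.15. With library size alone *Smurf1* was 0.02 (0.0243) in HSC-KO macrophages, 0.0238 in *Smad4* cKO macrophages and 0.29 in ECs, *Smad5* was 0.10 in *Smad4* cKO macrophages and *Smurf2* was 0.25 in ECs. In livers *Smad3* was -0.0268, *Smad4* -0.0066 and *Smad7* -0.0279, and between macrophages and ECs *Smad4* and *Smad7* were both -0.20 (-0.196 and -0.195) and *Smurf2* -0.14. *Smurf1* in ECs was 0.0050 with DESeq2 and 0.0049 with its size factors in edgeR, and *Smad4* between macrophages and ECs was -0.0189 and -0.0186. With *Xist* as a covariate *Smurf1* was 0.11 in HSC-KO macrophages, *Smad4* was -0.0077 in ECs, and *Smad3* and *Smad4* were -0.0659 and -0.0706 in livers. With 1 library left out, HSC-KO macrophages gave -0.0164 to 0.15 for *Smad5*, -0.15 to 0.11 for *Smad4*, -0.21 to 0.12 for *Smurf1* and -0.13 to 0.11 for *Smurf2*. *Smad4* cKO macrophages gave -0.14 to 0.0206 for *Smad5*, -0.0165 to 0.097 for *Smad2* and -0.042 to 0.33 for *Smurf2*. ECs gave -0.0509 to 0.0933 for *Smad4*, -0.0528 to 0.033 for *Smurf1* and -0.12 to 0.0593 for *Smurf2*. Livers gave -0.0477 to 0.31 for *Smad3*, -0.055 to 0.22 for *Smad4*, -0.47 to 0.32 for *Smad7* and -0.15 to 0.0562 for *Smurf2*. Between HSC-KO and *Smad4* cKO macrophages *Smad3* went from -0.19 to 0.64, *Smurf1* from -0.10 to 0.30 and *Smurf2* from -0.31 to 0.11. Between macrophages and ECs *Smad4* went from -0.14 to 0.12, *Smad7* from -0.20 to 0.17, *Smurf1* from -0.19 to 0.14 and *Smurf2* from -0.0868 to 0.16.

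Samples with the same replicate number correlated by -0.107 to 0.162 in their deviations from the group means, so the numbers were not taken as pairs, although in ECs every library correlated best with its own number. With the replicate block, DEGs were 1599, 716, 2054 and 271, the calls of *Smad3* in *Smad4* cKO macrophages (adjusted p = 0.0831) and *Smad9* in ECs (adjusted p = 0.111) were lost, *Smad7* in livers was -0.0331, and no other member's call changed. For control ECs against control macrophages, where 1 mouse gave both libraries, limma's duplicateCorrelation returned no consensus correlation over the mice, and no other blocked fit was run. Summing the EC markers without *Cdh5*, chosen after seeing the data, gave mean EC shares of 2.64, 0.514, 11.2 and 12.1% in control, HSC-KO, Smad4FF and *Smad4* cKO macrophages. With the longest transcript in place of the exon union, mean shares of the BMP R-Smads were higher in every group and kept the order of mutant and control. They were 41.2, 36.1, 43.75 and 48.9% in control, HSC-KO, Smad4FF and *Smad4* cKO macrophages, 24.8 and 49.6% in control and HSC-KO ECs and 34.97 and 45.9% in control and HSC-KO livers. I-Smad shares were 38.3 and 7.19% in control and HSC-KO ECs and 11.99% in Smad4FF macrophages. The order of single genes also moved with this length. In control ECs *Smad1* (11.98 CPM per kb) then stood above *Smad7* (11.5). In control livers *Smurf1* (4.42) and *Smad1* (4.37) stood above *Smad6* (4.21). Low counts limit the size of the change for *Smad9* in sorted cells and for *Smad6* in HSC-KO macrophages.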
